A study of Mus musculus with 6 samples.

Results

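The genes described here are chitinase-like and macrophage activation genes of the mouse kidney: Chil3, Chil1, Arg1, Mrc1, Cd163, Retnla, Cd68, Adgre1, Csf1r and Msr1. They were taken by name from the arrays, with Chil3 listed there as Chi3l3, Chil1 as Chi3l1 and Adgre1 as Emr1. The list covers 10 of 27343 named genes and 16 of 41174 probes. The genes were selected on the injury contrast of the wild-type arrays, in which Chil3 stood out, so every injury difference of these genes is given as a description with no test. Of the 10 genes, 8 had a signal well above background on 2 or more arrays, the condition for entering the fits with 19634 genes in all. Arg1 and Retnla did not meet it, and their signals are given separately.

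Whole kidneys of mice labelled male were profiled on 6 single-colour arrays, to compare gene activity with and without renal ischaemia/reperfusion injury, in which blood flow to the kidney is stopped and then let back, in the presence and absence of Gpr97. Gpr97 is the older name of Adgrg3, a receptor of the adhesion G protein-coupled family. The groups were wild-type kidneys after sham surgery (2 arrays), wild-type kidneys after injury (2 arrays), Gpr97-deficient kidneys after sham surgery (1 array) and Gpr97-deficient kidneys after injury (1 array). No source used here gives strain, age, how Gpr97 was removed, how long ischaemia lasted or when kidneys were taken. Whether arrays of 1 group came from separate animals is also unstated, and p-values then reflect the spread of these samples alone, which may be technical.

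Macrophages of the injured kidney come from resident cells and from blood monocytes, and their survival depends on the receptor Csf1r and its ligands Csf1 and Il34. In mice, macrophages exposed to the type 2 cytokines Il4 and Il13 make the chitinase-like protein Chil3, arginase 1, the mannose receptor Mrc1 and the small secreted protein Retnla, a state called alternative activation. Chil3 and Chil1 bind carbohydrates but have no chitinase activity. Chil3 is also made by neutrophils and their precursors in bone marrow, and Chil1 by injured epithelium, so neither marks macrophages alone.

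The probes behind the main results are shown by the first 30 of their 60 bases, because what a probe matches decides which of several related transcripts it reads. Positions are those of the array annotation in mm9. They start at position 1466 of the transcript for Chil3, 1528 for Chil1 (chr1:136086448-136086507, plus strand) and 753 for Cd68 (chr11:69478314-69478373, minus strand). The Chil3 probe lies at chr3:105950485-105950544 on the minus strand and is annotated to Chil3 alone, whereas the Chil4 probe, spread over chr3:106006764-106007043, is annotated to transcripts of both Chil3 and Chil4. The probes of Adgre1 begin at position 3135 (probe A_51_P251768, chr17:57622843-57622902) and at position 934 (probe A_52_P364727, chr17:57550221-57550280) of its transcript, on the plus strand.
Chil3 probe: tgaacatcttttgcttcctgtaaaaccacc
Chil4 probe: aaatagtcccctctataaatctccatatga
Chil1 probe: ggacaccacttggatcaagtaggcaaatat
Cd68 probe: ttgggccaaagcttctgctgtggaaatgca
Adgre1 probe at position 3135: ttgtgtttcctatgcactttcttgtggtgt
Adgre1 probe at position 934: cctggctttgcatctagcaatggacagctg

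Signals are log2 values from which the array's 75th percentile was subtracted, so 0 is the level that 75% of probes stay under. Between 63.0% and 71.1% of probes were well above background per array, and no spot was saturated (0 on each array). The arrays lie on 2 slides, and injury was compared in pairs of 1 slide and 1 genotype: wild-type injured array 2 against wild-type sham array 1 on slide 1, wild-type injured array 1 against wild-type sham array 2 on slide 2, and the Gpr97-deficient arrays on slide 2. Genotype and slide are therefore partly confounded, since slide 1 holds no Gpr97-deficient array. Adgrg3 stood between 0.05 and 1.25 on the wild-type arrays and at -5.34 and -5.71 on the Gpr97-deficient arrays, as their labels say. Wild-type injured array 1 went against its label of male: Xist, the RNA of the inactive X chromosome, stood at 4.10 there and at -5.38 or lower on the other arrays, and 4 genes of the Y chromosome did not rise clearly over background there. Results resting on this array are given beside those of the slide 1 pair, which does not contain it. The wild-type sham arrays also stood apart from each other, with the lymphoid and antigen-presenting genes Jchain (-4.26 and 3.26) and Cd74 (2.30 and 5.28) higher on array 2. For both genes the split followed the slide over all arrays. Jchain stood at -4.26 and -3.51 on slide 1 and between 1.24 and 3.26 on slide 2. Cd74 stood at 2.30 and 1.83 on slide 1 and between 3.17 and 5.28 on slide 2.

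The 10 genes did not share a direction after injury. Cd68 was at least 2-fold higher in all 3 pairs, and Chil3 and Chil1 in the 2 wild-type pairs, with 0.31 and -0.10 in the Gpr97-deficient pair. By their brightest probes, Csf1r and Adgre1 were lower in all 3 pairs, and Csf1r, Adgre1 and Mrc1 stayed under 2-fold in each pair. At least 2-fold higher in all 3 pairs was true of 1 of the 8 genes and of 1.19% of all genes tested. At least 2-fold higher in both wild-type pairs was true of 3 of the 8, Chil3, Chil1 and Cd68, and of 1.99% of all genes. That pattern together with less than 2-fold in the Gpr97-deficient pair was true of Chil3 and Chil1, and of 0.795% of all genes. Because the wild-type change chose the genes, nothing is read from these shares.

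The median injury difference of the 8 genes was 0.83 in the slide 1 pair, 0.24 in the wild-type slide 2 pair and 0.34 in the Gpr97-deficient pair, beside -0.084, 0.013 and -0.050 over all genes. Chil3, Cd68 and Msr1 were higher in all 3 pairs, as were 19.6% of all genes. Adgre1 and Csf1r were lower in all 3, as were 25.3% of all genes. In whole kidney, fewer or more cells of a type and less or more RNA per cell cannot be told apart.

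**Figure D1:**
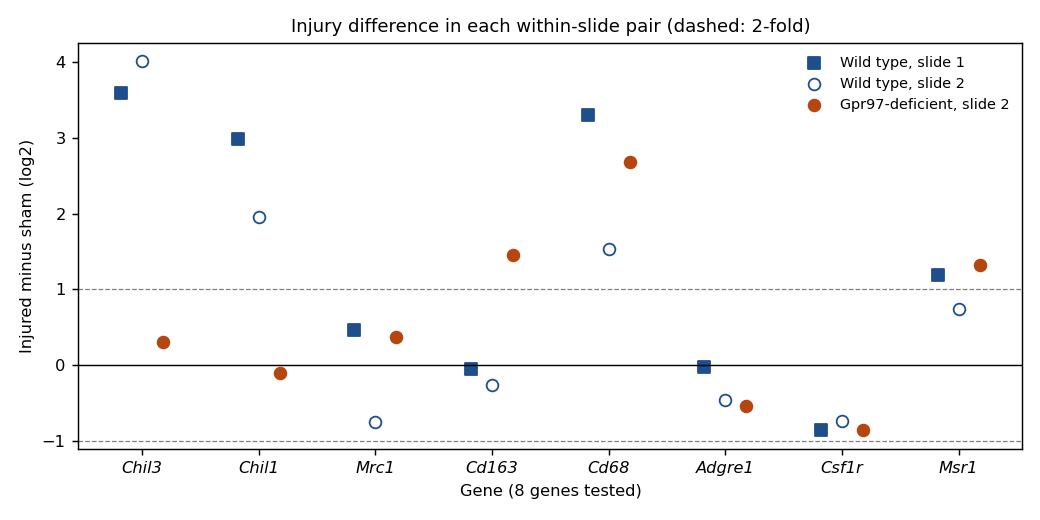
Injured minus sham signal (log2) of the 8 genes tested, in each pair of 1 slide and 1 genotype; dashed lines mark 2-fold. Chil3 lies at 3.59 and 4.02 in wild type and at 0.31 in Gpr97 deficiency, Cd68 lies above 1.5 in every pair, and the 3 values of Csf1r lie between -0.86 and -0.74.

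Among the chitinase-like genes, Chil3 had the widest difference between groups. It stood at -3.06 and -3.58 on the wild-type sham arrays, at 0.44 and 0.53 on the wild-type injured arrays, and at 0.54 and 0.85 on the Gpr97-deficient arrays after sham surgery and injury. The 2 wild-type sham arrays were thus low and the other 4 arrays high, the Gpr97-deficient sham array among them. The wild-type groups averaged -3.32 ± 0.37 (SD, n = 2) and 0.48 ± 0.07 (SD, n = 2), and did not overlap. The injury difference was 3.59 on slide 1 and 4.02 on slide 2 in wild type (mean 3.80, SD 0.30, n = 2 pairs), and 0.31 in the Gpr97-deficient pair. The interaction of genotype and injury was -3.49 for Chil3, larger in size than for Chil1 (-2.58) and Cd163 (1.62). That value contains the wild-type change that chose the genes and is given as a description.

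After sham surgery, Chil3 was 3.86 higher on the Gpr97-deficient array than the mean of the wild-type arrays, and 4.12 higher than the wild-type array of the same slide. After injury the same comparison gave 0.37 and 0.41. A Gpr97-deficient sham signal at least 2-fold above both wild-type sham arrays was found for 1 of the 8 genes, Chil3, and for 1.45% of all genes tested. This is a difference of 1 array from 2, with no test of its own. Over both surgeries Chil3 was 2.11 higher in Gpr97 deficiency (SE 0.81), with an unadjusted p of 0.0466 and an adjusted p of 0.993 in limma, so it did not pass.

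Neutrophil and red-cell markers were high on the same Gpr97-deficient sham array. The median of 15 neutrophil genes stood 2.70 above the wild-type sham mean there, against 2.93 and 1.89 on the wild-type injured arrays and 2.56 on the Gpr97-deficient injured array. Of these 15 genes, 11 were at least 2-fold above both wild-type sham arrays on the Gpr97-deficient sham array. Among them were Camp (-1.58 against -4.89 and -5.38) and Ngp (-1.19 against -5.46 and -6.75), granule proteins of immature neutrophils. Mpo (-2.83 against -2.54 and -3.03) and Prtn3 (-4.67 against -4.30 and -4.89), on the same list, lay between the wild-type sham arrays. Camp and Ngp stood between -5.93 and -4.82 on the 3 injured arrays, so they did not share the high level of Chil3 there. The median of 4 erythroid genes was 4.69 above the wild-type sham mean on the Gpr97-deficient sham array and that of 12 genes of dividing cells 2.42 above it. The part of these cell types in the Chil3 signal was not tested.

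**Figure D2:**
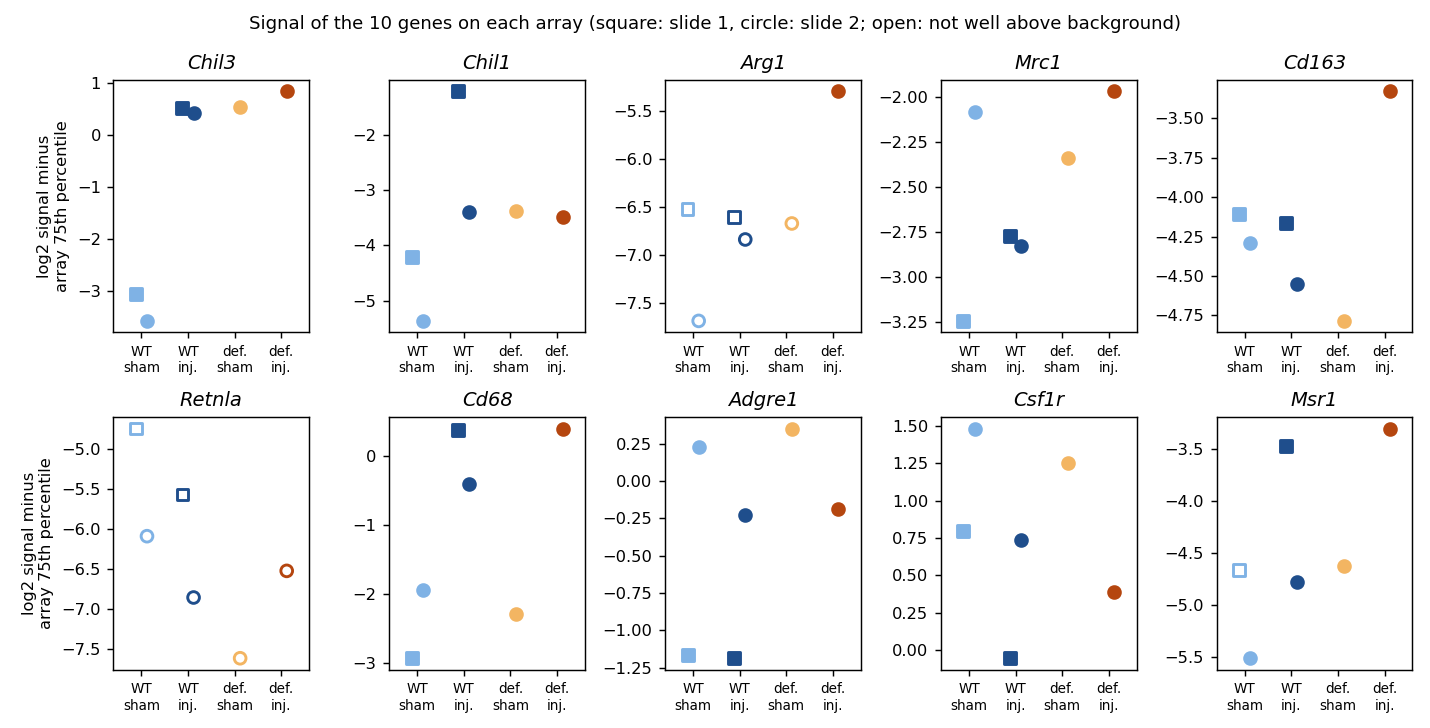
Signal of the 10 genes on each array (log2 minus the array's 75th percentile), by group: WT is wild type, def. is Gpr97-deficient and inj. is injured; squares are slide 1, circles slide 2, and open symbols not well above background. Each panel has its own vertical scale. Chil3 is low only on the 2 wild-type sham arrays, Cd68 is high on the 3 injured arrays, and Retnla is open throughout.

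Chil1 was less even. It stood at -4.20 and -5.36 on the wild-type sham arrays, at -3.40 and -1.22 on the wild-type injured arrays, and at -3.38 and -3.48 on the Gpr97-deficient arrays after sham surgery and injury. Wild-type injured array 2 was the high array, and the other injured arrays lay beside the sham array of Gpr97 deficiency. The injury difference was 2.99 on slide 1, 1.96 on slide 2 and -0.10 in the Gpr97-deficient pair. With normexp background correction the mean wild-type difference was 1.37, against 2.47. Genotype over both surgeries gave 0.12 (SE 0.90, limma adjusted p 0.995). The difference from the wild-type mean was 1.41 after sham surgery and -1.17 after injury. Against the wild-type array of the same slide, Chil1 differed by 1.98 after sham surgery and by -0.08 after injury.

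The promoters of Chil3 and its neighbour Chil4 are shown because the 2 genes were both high on the same 4 arrays and because their sequences are close. They are the 250 bases before the RefSeq start in GRCm38.p6, at chr3:106167565-106167814 for Chil3 and chr3:106219480-106219729 for Chil4, both on the minus strand. Capitals mark bases without an identical partner in the global alignment of the 2 windows, 48 in each.
Chil3 promoter: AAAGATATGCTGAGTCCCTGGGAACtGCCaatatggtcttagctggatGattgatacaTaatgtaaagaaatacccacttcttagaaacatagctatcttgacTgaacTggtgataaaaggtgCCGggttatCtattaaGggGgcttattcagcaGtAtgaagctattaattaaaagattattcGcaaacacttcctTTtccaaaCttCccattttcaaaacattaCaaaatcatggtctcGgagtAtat
Chil4 promoter: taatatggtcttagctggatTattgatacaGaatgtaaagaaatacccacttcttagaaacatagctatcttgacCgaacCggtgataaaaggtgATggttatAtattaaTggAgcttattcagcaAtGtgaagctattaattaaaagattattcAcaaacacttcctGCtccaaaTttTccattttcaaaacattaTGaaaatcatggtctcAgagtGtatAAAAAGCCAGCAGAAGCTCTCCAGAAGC

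In that alignment 202 of 279 columns were identical (72.4%), with 19 mismatches and 58 gap columns, against 47.0% for Chil3 and Chil1. The capitals at the first bases of Chil3 and the last bases of Chil4 are stretches that the other window does not reach. Promoters were searched on both strands for GAGGAA (the core of PU.1, a factor of myeloid cells), TTGCNNAA (C/EBP), TTC and GAA separated by 4 bases (STAT) and TATAAA. The Chil3 window held none of them (0 matches), and the Chil4 window held TTGCNNAA and TATAAA. In the alignment the Chil3 window stops inside the stretch that is TATAAA in Chil4, so the windows cannot be compared for TATAAA. Of the 6 listed genes with an entry, GAGGAA was found in Cd68, Mrc1 and Retnla (23.4% of 32536 promoters), TTGCNNAA in Cd68 and Retnla (9.57%), and the STAT spacing (5.89%) and TATAAA (12.3%) in Retnla. A match or its lack describes the letters only.

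Chil4 stood at -4.39 and -5.54 on the wild-type sham arrays, where it was not well above background, and between -3.12 and -2.71 on the other 4 arrays. After wild-type injury it was at least 4.13-fold higher, a bound because the sham signals were not well above background, and its probe can also read Chil3. The rest of the chitinase family was dim or differed by less than 2-fold in some pair. Chit1, the chitinase of macrophages, stood at -4.85 and -3.77 on the wild-type sham arrays, -3.44 and -3.50 on the injured, and -3.85 and -3.18 in Gpr97 deficiency after sham surgery and injury. Of 6 family genes tested outside the list, 2 were higher and 1 lower in all 3 pairs, 0 at least 2-fold in each. Chil5 and Chil6 were not well above background on enough arrays to be tested.

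Of the proteins reported to bind Chil1, Cd44, the hyaluronan receptor, stood at -3.18 and -2.08 on the wild-type sham arrays, -1.10 and -0.40 on the wild-type injured arrays, and went from -2.54 to -0.84 in Gpr97 deficiency. Lgals3, a galactoside-binding lectin, stood at 2.73 and 2.59, 3.97 and 5.38, and 3.09 and 4.73 in the same order. Both genes had every injured array above every sham array, a separation that 10.1% of all genes showed. The prostaglandin receptor Ptgdr2 was lower in all 3 pairs, between -0.60 and -0.36.

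Of the other alternative activation genes on the list, Arg1 and Retnla were dim and Mrc1 differed by less than 2-fold in each pair. Arg1, which turns arginine into ornithine, was well above background on 1 of 6 arrays, the Gpr97-deficient injured array, at -5.30. On the other arrays its signal lay between -7.69 and -6.52, so no difference was fitted. The 2 Retnla probes overlap by 50 bases and were well above background on 0 of 6 arrays, with signals between -7.62 and -4.69.

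Mrc1, the macrophage mannose receptor, stood at -3.24 and -2.08 on the wild-type sham arrays, at -2.83 and -2.77 on the wild-type injured arrays, and at -2.34 and -1.97 on the Gpr97-deficient arrays after sham surgery and injury. The 2 wild-type sham arrays enclosed both injured ones. Its injury difference was 0.47 on slide 1, -0.75 on slide 2 and 0.37 in Gpr97 deficiency.

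Cd163, the receptor that takes up haemoglobin bound to haptoglobin, stood at -4.11 and -4.29 on the wild-type sham arrays, at -4.55 and -4.16 on the wild-type injured arrays, and at -4.78 and -3.33 on the Gpr97-deficient arrays after sham surgery and injury. These were the lowest and the highest of all arrays. The pairs gave -0.06, -0.26 and 1.46. With normexp background correction the difference in Gpr97 deficiency was 0.49 and that in wild type 0.88, so the contrast between genotypes turned.

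The upstream cytokine route was measured by 11 genes. Il4ra, the shared receptor chain of Il4 and Il13, stood at -1.13 and -0.47 on the wild-type sham arrays, 0.01 and 0.07 on the wild-type injured arrays, and -0.05 and 0.42 in Gpr97 deficiency. Il33, an alarm cytokine of epithelium that drives type 2 responses, was 1.17, 0.97 and 0.56 higher in the slide 1, wild-type slide 2 and Gpr97-deficient pairs. Of the 11 genes, 3 were higher and 2 lower in all 3 pairs, and their medians in the pairs were 0.44, -0.13 and 0.24.

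Of 12 other alternative activation genes tested, 5 were higher and 4 lower in all 3 pairs. Socs2, an inhibitor of cytokine signalling, was at least 2-fold higher in each (1.69, 1.16 and 1.93). Stab1, a scavenger receptor of macrophages and sinusoidal endothelium, was 0.54, 0.87 and 1.08 higher. Clec7a, the beta-glucan receptor, was lower in each pair (-0.94, -1.70 and -2.47). Of 16 classical activation genes 5 were higher and 4 lower, with Cxcl10, an interferon-induced chemokine, 1.55, 0.79 and 0.97 higher. Il6 was not well above background on either wild-type sham array and on 1 of the 2 wild-type injured arrays. It stood at -2.02 on wild-type injured array 2, while wild-type injured array 1 (-5.86) lay level with wild-type sham array 1 (-5.89). In Gpr97 deficiency Il6 stood at -7.49 after sham surgery and -5.17 after injury. Its pairs gave 3.87, 1.76 and 2.32, though both wild-type pairs contain signals not well above background.

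Arginine genes other than Arg1 were bright enough to compare. Arg2, the mitochondrial arginase of kidney tubules, stood at -0.81 and -2.78 on the wild-type sham arrays, at 2.36 and 2.54 on the wild-type injured arrays, and at -0.58 and 2.58 on the Gpr97-deficient arrays after sham surgery and injury. Every injured array lay above every sham array. Ass1, which makes argininosuccinate, stood at 6.52 and 7.44, 5.40 and 4.51, and 7.25 and 4.85 in the same order, with every injured array below every sham array, as for 12.4% of all genes. Of the 17 genes of the list tested, 5 were higher and 6 lower in all 3 pairs. The median of 10 proximal tubule genes was also lower on the injured arrays, at -1.28 to -0.67 from the wild-type sham mean, and its part in the Ass1 signal was not tested.

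Among the macrophage genes proper, Cd68 was higher after injury and Csf1r lower. Cd68, a glycoprotein of lysosomes in phagocytes, stood at -2.93 and -1.94 on the wild-type sham arrays, at -0.41 and 0.38 on the wild-type injured arrays, and at -2.29 and 0.39 on the Gpr97-deficient arrays after sham surgery and injury. The injured arrays all lay above the sham arrays, and Cd68 was the only gene of the 8 with this separation, which 10.1% of all genes showed. The differences were 3.30 on slide 1, 1.53 on slide 2 and 2.68 in Gpr97 deficiency (mean 2.51, SD 0.90, n = 3 pairs).

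Csf1r, the receptor for Csf1 and Il34, stood at 0.80 and 1.48 on the wild-type sham arrays, at 0.74 and -0.05 on the wild-type injured arrays, and at 1.25 and 0.39 on the Gpr97-deficient arrays after sham surgery and injury. It was the only gene of the 8 with every injured array below every sham array, as for 12.4% of all genes, though wild-type injured array 1 (0.74) lay close to wild-type sham array 1 (0.80). The differences were -0.85, -0.74 and -0.86 (mean -0.82, SD 0.07, n = 3 pairs). Its other probes gave -1.29, -0.92 and -1.07, and -0.95, -0.66 and -0.72. With normexp background correction the injured and sham arrays overlapped.

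The ligands ran the other way. Il34 stood at 0.56 and 1.41 on the wild-type sham arrays, at 2.33 and 3.41 on the wild-type injured arrays, and at 0.43 and 3.73 in Gpr97 deficiency after sham surgery and injury. Csf1 stood at -0.54 and -0.32, 0.47 and 1.91, and -0.27 and 0.86 in the same order. For both ligands every injured array lay above every sham array. All 7 genes of the colony-stimulating factor list other than Csf1r that were tested were higher in all 3 pairs, as were 19.6% of all genes, and 4 of them, Csf1, Il34, Csf2ra and Csf3r, without overlap. Some of these differences were close to 0: Csf2, well above background on 2 of 6 arrays, had 0.013 on slide 1 and 0.003 in Gpr97 deficiency, Csf2ra 0.066 on slide 1 and Csf2rb 0.043 in Gpr97 deficiency.

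Adgre1, a surface antigen of tissue macrophages, stood at -1.17 and 0.23 on the wild-type sham arrays, at -0.23 and -1.19 on the wild-type injured arrays, and at 0.35 and -0.19 in Gpr97 deficiency after sham surgery and injury. The arrays of slide 1 were the low ones in both wild-type groups. Its pairs gave -0.02, -0.46 and -0.54. The second probe, near position 934, was well above background only on the Gpr97-deficient injured array (-2.74, others between -7.14 and -5.68), so the probes disagreed there by direction: it was 4.40 higher after injury in Gpr97 deficiency. With the mean of both probes Adgre1 was 1.93 higher in that pair, and no longer lower in all 3.

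Msr1, a scavenger receptor for modified lipoproteins, stood at -4.66 (not well above background) and -5.51 on the wild-type sham arrays, at -4.77 and -3.47 on the wild-type injured arrays, and at -4.62 and -3.30 in Gpr97 deficiency after sham surgery and injury. Wild-type injured array 1 lay within the range of the sham arrays. Its 3 probes were each higher in all 3 pairs, by 1.19, 0.74 and 1.32 for the brightest and by 2.31, 1.71 and 1.69 for probe A_51_P404846, whose injured and sham arrays did not overlap. With normexp background correction its difference in Gpr97 deficiency was 0.47. With the mean of all probes Msr1 joined Cd68 as at least 2-fold higher in all 3 pairs.

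**Figure D3:**
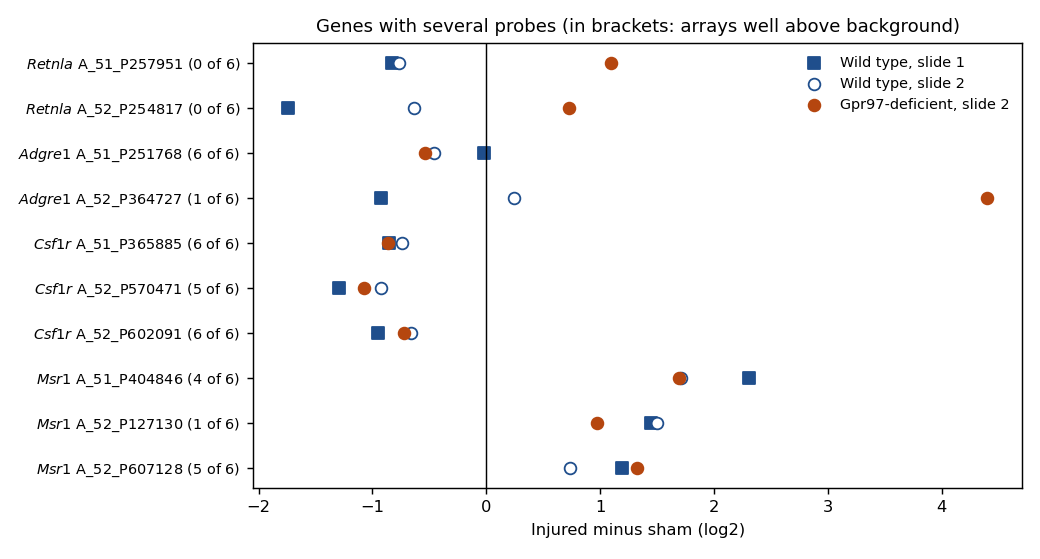
Injured minus sham signal (log2) in each pair for every probe of Retnla, Adgre1, Csf1r and Msr1, with the number of arrays on which the probe was well above background. The 3 Csf1r probes lie left of 0 and the 3 Msr1 probes right of it in all pairs, while the Adgre1 probes part at 4.40 against -0.54 in the Gpr97-deficient pair.

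Other macrophage and monocyte genes were mixed. Of 25 tested outside the list, 7 were higher and 3 lower in all 3 pairs, with medians of 0.56, -0.15 and 0.00 in the pairs. Cd14, the lipopolysaccharide co-receptor, stood at -0.14 and -0.29 on the wild-type sham arrays, 1.52 and 2.66 on the wild-type injured arrays, and 0.43 and 2.58 in Gpr97 deficiency. Gpnmb, a lysosomal glycoprotein of phagocytes, was well above background on 2 arrays only, wild-type injured array 2 (-3.72) and the Gpr97-deficient injured array (-3.61). In the Gpr97-deficient pair it was at least 10.8-fold higher, whereas wild-type injured array 1 (-5.42) lay below wild-type sham array 1 (-4.82). Trem2, a lipid-sensing receptor of phagocytes, was 1.31, 1.37 and 0.90 higher. Cybb, a subunit of the phagocyte oxidase, had every injured array below every sham array. Of 11 other scavenger receptor genes 5 were higher and 2 lower in all 3 pairs, the endothelial receptor Stab2 by -1.29, -0.80 and -1.14.

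No gene passed the test of genotype over both surgeries in limma at an adjusted p under 0.05 (0% of 19634, with 634 at an unadjusted p under 0.05). Adgrg3 itself did not pass in limma, at -6.19 (SE 0.35, unadjusted p 1.03e-05, adjusted p 0.201). The lack of a call therefore does not show that a genotype difference is absent. Beside Chil3, the genotype differences of Adgre1 (0.67, SE 0.49), Msr1 (0.64, SE 0.46) and Mrc1 (0.58, SE 0.37) were larger than their errors. Those of Cd68 (0.28, SE 0.38), Cd163 (0.22, SE 0.41) and Csf1r (0.08, SE 0.32) were smaller than theirs. The adjusted p of all these genes in limma lay between 0.993 and 0.995, so none passed. Normexp background correction put Chil1, Mrc1, Cd163 and Msr1 below 0, and slide as a block did so for Csf1r. Slide as a block also gave 0.08 for Adgre1, 0.30 for Mrc1 and 1.18 for Msr1. The median over the 8 genes was 0.43 and over all genes -0.015. The interaction of genotype and injury, which contains the wild-type change that chose the genes, called 0% of 19634 genes (292 at an unadjusted p under 0.05).

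The genes whose profile over the 6 arrays came closest to that of Chil3 were Stfa2, Clec4e, Retnlg, Stfa1 and S100a9. The measure was the root mean square difference of centred log2 signals, from 0.51 for Stfa2 to 0.72 for S100a9. S100a9, a calcium-binding protein abundant in neutrophils, stood at 1.43 and 0.87 on the wild-type sham arrays, 4.50 and 3.26 on the wild-type injured arrays, and 5.49 and 4.44 on the Gpr97-deficient arrays after sham surgery and injury. Retnlg, a resistin-like gene of neutrophils, stood at -3.20 and -4.18, 0.02 and -1.52, and 0.11 and -0.15 in that order. Both were high on the Gpr97-deficient sham array, as Chil3 was. Among the listed genes the nearest to Chil3 was Chil1 at 1.26, and the farthest Csf1r at 2.18. The profile of Csf1r was closest to Smim22 (0.075), Ovol1, Cracdl, Syt7 and Hibadh (0.10), and among the listed genes to Adgre1 (0.43). Arg1 has no neighbours because it was not tested.

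**Figure D4:**
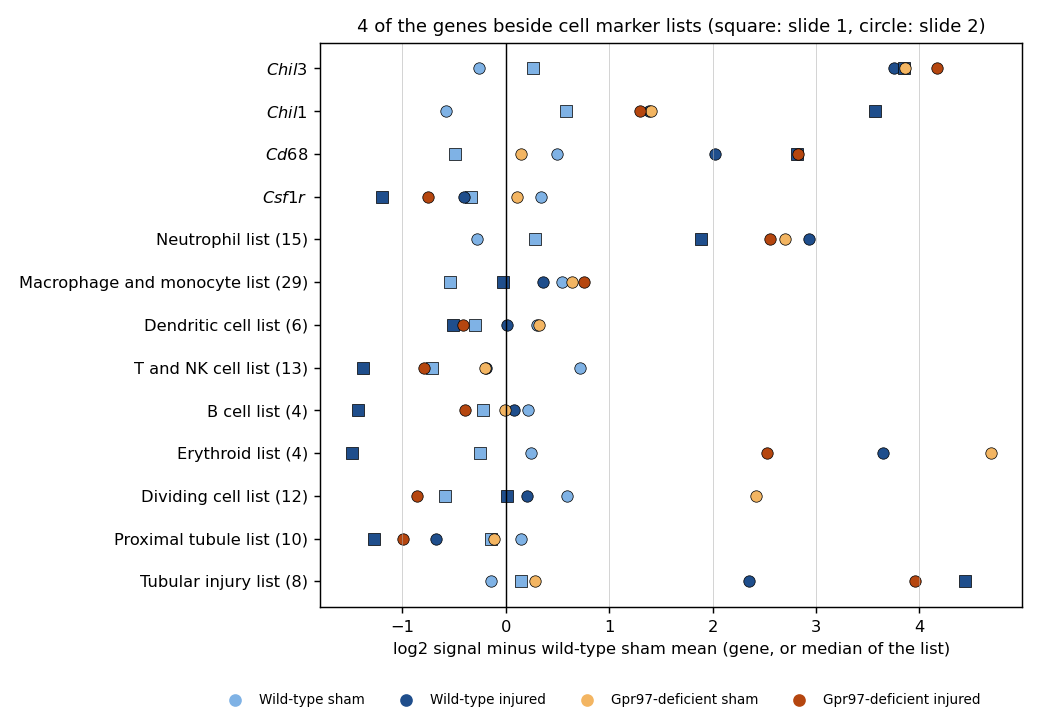
Signal of Chil3, Chil1, Cd68 and Csf1r, and the median of cell marker lists (number of genes in brackets), minus the wild-type sham mean (log2) on each array; squares are slide 1 and circles slide 2. The Gpr97-deficient sham array lies 3.86 up for Chil3 and 2.70 for the neutrophil list, but at 0.15 for Cd68 and 0.28 for the tubular injury list.

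Marker lists did not all separate injured from sham arrays as Cd68 did. The median of 29 macrophage and monocyte genes, 4 of which are among the 10, lay between -0.54 and 0.76 of the wild-type sham mean on all arrays and did not separate injured from sham. The 8 tubular injury genes lay between 2.35 and 4.44 above it on the injured arrays, and 0.28 above it in Gpr97 deficiency after sham surgery. The erythroid median was 3.64 above it on wild-type injured array 1 and -1.48 on wild-type injured array 2. T and NK cell genes were lower in all 3 pairs for 8 of 13. The summed level of the neutrophil list ran from 1.47 to 2.52 on the wild-type sham arrays, was 5.93 in Gpr97 deficiency after sham surgery and ran from 5.38 to 6.26 on the injured arrays. Such a sum follows its brightest genes: Lcn2, also on the tubular injury list, stood at 5.45 on wild-type injured array 2 and 5.56 in Gpr97 deficiency after injury but at -0.67 after sham surgery, where S100a9 (5.49) was the brightest. Like sums are therefore not like neutrophil levels. Elane, a protease of early neutrophil precursors, was not well above background on enough arrays to be tested.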

How the data were processed

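Single-colour Agilent arrays (Cy3) measured whole kidney RNA. Per the file headers, the deposited intensity values, the processed signals, come from Feature Extraction 10.7.1.1 (slide 1) and 10.7.3.1 (slide 2), with spatial detrending and surrogate values for signals near background, and probe positions are in mm9. The authors' deposited series values were read as log2, with array medians between 6.07 and 6.09. Their rank order matched the scanner signals on each array, which does not decide the scale. No source used here states how these values were normalized, though limma appears, unversioned, in the submitters' processing notes. Flags for background, saturation and outliers are the deposited files' own.

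Each signal was set to log2 minus the 75th percentile of its array, after leaving out control spots (43379 of 45018 spots were kept) and spots marked non-uniform or population outlier, then averaged over the spots of each probe. RefSeq gave names to most of the 41174 probes: 27668 were named through RefSeq accessions, 6060 through symbols or synonyms, and 7446 kept the file's older name. Genes were read from their brightest probe and entered the fits if 2 or more of the 6 arrays were well above background. Tests were two-sided in limma 3.58.1 (R 4.3.3) with Benjamini-Hochberg adjustment over all 19634 genes. Genotype came from an additive model with surgery, and the interaction from group means; each Gpr97-deficient group has 1 array, whose spread was taken to be that of wild type. An "at least N-fold" bound sets the brighter group's mean against the dimmer group's, in which each array counts with at least its lowest signal called well above background. Summed levels add linear signals of a list's probes before taking log2.

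The genes and gene lists were chosen with earlier results of these data known. The genes named were the 10 listed, up to 4 others of each list with the largest mean injury difference, the 5 nearest profiles of Chil3 and Csf1r, and Adgrg3. Chil5, Chil6, Camp, Ngp, Mpo, Prtn3, Cybb, Csf2ra, Elane and Xist were named after their values were seen. Promoters are RefSeq sequences in GRCm38.p6, aligned with Biopython 1.88; Arg1, Adgre1, Csf1r and Msr1 have no entry. Scaling, background correction, filters, probe choice, slide and single arrays were varied as alternatives. The number of arrays limits the precision.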

Additional observations from a re-analysis of the deposited data

Results flagged for a closer look

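Cd163 was singled out because its injury difference was 1.46 in the Gpr97-deficient pair but -0.06 and -0.26 in the wild-type pairs, the opposite direction. The interaction was 1.62 (SE 0.47, limma adjusted p 0.99997), so the difference between genotypes did not pass its test, and normexp background correction turned it.

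Chil1 was singled out because its injury difference was -0.104 in the Gpr97-deficient pair but 2.99 and 1.96 in the wild-type pairs. The interaction was -2.58 (SE 1.54, limma adjusted p 0.99997) and did not pass its test, which also contains the wild-type change that chose the gene.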

How the results depend on the processing

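No analysis paired by replicate was possible because the labels give the groups no shared replicate numbers. The array numbers follow the order of the samples only. Arrays were instead paired within slides, and slide as a block called 0 genes for genotype. Without an array, the listed genes at least 2-fold higher in all remaining pairs numbered 1 to 3, against 1: Msr1 joined without wild-type injured array 1 (2) or wild-type sham array 2 (2), and Chil3 and Chil1 joined without either Gpr97-deficient array (3). Genes with injured arrays all above sham arrays numbered 1 to 3: Msr1 joined without wild-type injured array 1 (2), Chil3 and Chil1 without the Gpr97-deficient sham array (3). Genes all below numbered 1 to 2: Adgre1 joined without wild-type sham array 1. The runs without a Gpr97-deficient array were added for these counts after seeing the data. They leave only the wild-type pairs, whose change chose the genes. Their count of genes at least 2-fold higher (3) therefore repeats the count for both wild-type pairs, a pattern of 1.99% of all genes. For the other counts without an array, no share over all genes was computed. The mean of all probes gave 2 genes at least 2-fold higher, Cd68 and Msr1, and turned the Adgre1 injury difference in Gpr97 deficiency from -0.54 to 1.93.

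Normexp background correction left 0 genes all below and moved the median of all genes in the slide 1 pair from -0.084 to 0.479 (0.283 as the median shift of genes tested in both settings). Other scalings moved the genes by a median under 0.1. It lowered the wild-type injury differences of Chil3 (2.66) and Chil1 (1.37) and the Gpr97-deficient differences of Msr1 (0.47) and Cd163 (0.49), and raised that of Cd163 in wild type (0.88). It turned the genotype differences of Chil1 (-0.43), Mrc1 (-0.12), Cd163 (-0.59) and Msr1 (-0.46), and the Cd163 interaction (-0.38). The slide block turned the Csf1r genotype difference (-0.29). A trend and robust prior called 1 gene for genotype, Adgrg3. Without single arrays, genotype differences ranged from -1.17 to 1.41 for Chil1 (negative without wild-type injured array 1, wild-type sham array 2 or the Gpr97-deficient sham array: -0.17, -0.32 and -1.17), from -0.59 to 1.03 for Cd163 (negative without the Gpr97-deficient injured array) and from -0.088 to 0.25 for Csf1r (-0.074 and -0.088 when wild-type sham array 1 or wild-type injured array 2 was left out). None of these passed a test. The genotype difference of Chil3 kept its direction in all runs but not its size. It was 0.37 without the Gpr97-deficient sham array and 3.86 without the Gpr97-deficient injured array. Most of its size therefore rested on the Gpr97-deficient sham array. The wild-type injury change of Chil3 ranged from 2.66 to 4.02. The causes were not tested. With 1 array in each Gpr97-deficient group, signals near background (Arg1, Retnla, Msr1) are the least precise.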

Other observations

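Genes that recruit monocytes were higher on injured arrays in part. Ccl2, the main monocyte chemokine, stood at -1.82 and -2.29 on the wild-type sham arrays, -0.78 and 0.47 on the wild-type injured arrays, and -2.50 and -0.08 in Gpr97 deficiency after sham surgery and injury. Ccl7, which shares its receptor, was 1.71, 1.48 and 2.79 higher in the slide 1, wild-type slide 2 and Gpr97-deficient pairs. Spp1, osteopontin, was 1.97, 2.50 and 1.41 higher. Of 10 such genes tested, 4 were higher and 1 lower in all 3 pairs, and 4 had every injured array above every sham array. Ccl12 was 3.41 higher on slide 1 but 0.26 and -0.05 in the slide 2 pairs.

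Haemoglobin handling was followed because Cd163 belongs to it. Hmox1, haem oxygenase 1, stood at -0.12 and 1.94 on the wild-type sham arrays, 2.02 and 4.80 on the wild-type injured arrays, and 0.98 and 3.52 in Gpr97 deficiency, so the injured arrays lay above the sham arrays. Slc40a1, the iron exporter ferroportin, was 1.30, 0.39 and 0.59 higher. Hp, haptoglobin, stood at -2.64 and -4.07, -0.91 and -2.63, and -0.53 and -0.82 in the same order, high on the Gpr97-deficient sham array. Of 10 genes tested besides Cd163, 5 were higher and 1 lower in all 3 pairs.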
